A study of Nicotiana benthamiana with 12 samples.

Results

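The comparison described here is that of L2 with WT tobacco over 2 conditions together, that is, the difference between the lines that was shared by untreated and salt-treated leaves. L2 is a single homozygous transgenic line that carries CbFAD3, the microsomal ω-3 fatty acid desaturase gene of the alpine plant Chorispora bungeana, under the constitutive CaMV 35S promoter, and WT is the untransformed plant. Members were chosen by label alone. All 12 arrays of the series entered, of which 6 were L2 arrays (3 under normal conditions and 3 after 200 mM NaCl for 6 h) and 6 were WT arrays (again 3 and 3). Seedlings were 2 weeks old and had been raised at 25 °C in a 16 h light and 8 h dark cycle, and leaf RNA pooled from several plants was hybridized to each array. The number of plants per pool is given as 5 in one note and as 3 in another. Samples were labelled as N. benthamiana, whereas the 1-colour Agilent array carries probes designed for N. tabacum. Since L2 is 1 line, an effect of CbFAD3 and any other difference between that line and WT cannot be told apart.

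A microsomal ω-3 desaturase adds a double bond to linoleic acid in the endoplasmic reticulum and so yields linolenic acid, the main trienoic fatty acid of plant membranes. Trienoic fatty acids keep membranes fluid and are the starting material of jasmonates, which act as stress hormones in leaves. Plastids have their own ω-3 desaturases, of which NtFAD7 is the one of tobacco with a probe that could be identified here. The level of CbFAD3 itself was not analysed.

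Values are log2 of the processed spot signal relative to the 75th percentile of the array, so that 0 is the 75th percentile and a difference of 1 is 2-fold. Of 43759 probes, 26260 were tested. A tested probe had to exceed background clearly on each of the 3 arrays of some group and to lie outside a small group of spots along one array edge. The files give a probe name and an EST or mRNA accession but no gene description, so gene names were known for only 48 tested probes. Of these, 47 belong to a list of 61 that was chosen by the study on the salt arrays for a higher level in L2 (the other 14 lie among the spots left out), and NtFAD7 is the remaining one. The labelled tissue could not be checked against leaf marker genes.

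The arrays lay on 3 slides of 4, and slide 1 stood apart from slides 2 and 3 more than the lines did from each other. Slide 1 held L2 normal replicate 1 and all 3 WT normal arrays, slide 2 held L2 normal replicates 2 and 3 and WT salt replicates 1 and 2, and slide 3 held the 3 L2 salt arrays and WT salt replicate 3. Slide 1 thus held only normal arrays, and every salt-treated array was on slide 2 or 3. Slide and condition can therefore not be told apart in the distance of slide 1 from the rest. Over 20655 probes well above background on every array, the first principal component held 53% of the variance. The 4 arrays of slide 1 lay between -63.6 and -52.5 on it, and the other 8 between 8.42 and 46.2. L2 normal replicate 1, at -59.3, therefore lay among the WT normal arrays, whereas L2 normal replicates 2 and 3, at 17.2 and 42.6, lay among the salt-treated arrays. The correlation of L2 normal replicate 1 with the 3 WT normal arrays was 0.986 to 0.989, and that of L2 normal replicates 2 and 3 with L2 normal replicate 1 was 0.951 and 0.920. The net signal of the negative controls was 32.9 to 41.6 intensity units on slide 1 and 74.2 to 144 on slides 2 and 3. L2 normal replicates 2 and 3 thus went against their label in resembling the salt-treated arrays, with which they correlated at 0.940 to 0.980. For these 2 arrays slide, line and a wrong label cannot be told apart, and this touches every L2 normal level, line difference and interaction below. Values with slide as a block are therefore given beside the line differences of the probes described. With condition and slide both in the model, the line difference is the mean of the difference within slide 1 (1 L2 against 3 WT arrays) and that within slide 3 (3 L2 against 1 WT array).

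**Figure D1:**
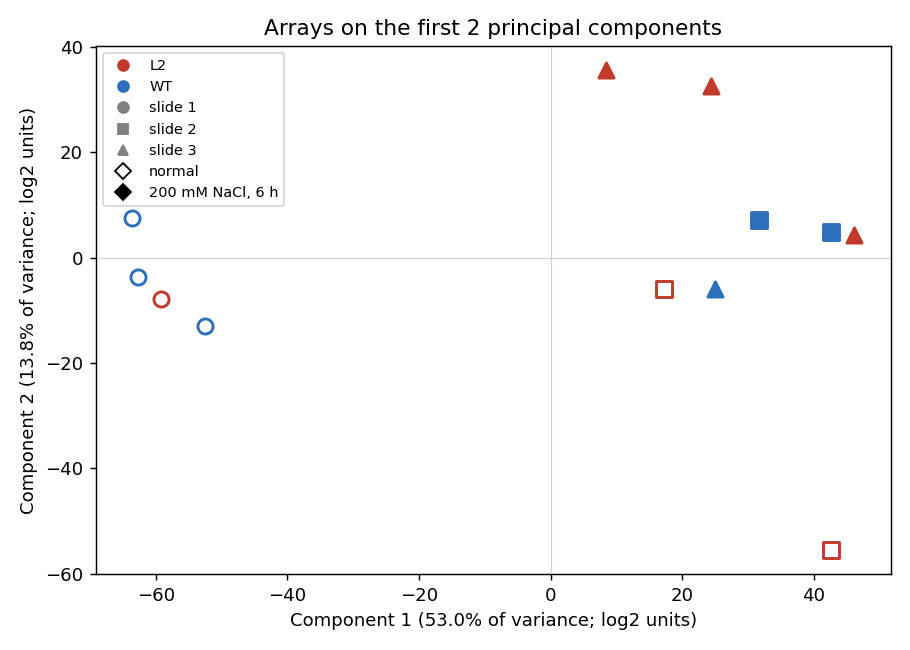
The 12 arrays on the first and second principal components (log2 units) of 20655 probes well above background on every array. Colour marks the line (L2, WT), shape the slide, and open or filled symbols normal conditions or salt; the 4 arrays of slide 1 sit between -63.6 and -52.5 on component 1 and L2 normal replicates 2 and 3 sit with the salt-treated arrays.

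The share of probes well above background averaged 55.3 ± 5.31% on L2 arrays and 59.8 ± 3.18% on WT arrays (SD, n = 6 each). The difference of -4.45 percentage points did not pass a two-sided exact permutation test of line within condition (p = 0.065 over 400 arrangements, which allow a smallest p of 0.005). The lowest share was on the L2 salt arrays, at 49.2 to 55.4%, against 54.2 to 61.2% on the WT salt arrays. All L2 salt arrays were on slide 3, where WT salt replicate 3 had 58.4%.

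Few probes were called as different between L2 and WT over both conditions. With condition as a covariate, 2 of 26260 probes were higher in L2 at a Benjamini-Hochberg adjusted p below 0.05 (0.00762% of those tested) and 0 were lower (0%), by limma. Both differed by more than 2-fold. At an unadjusted p below 0.05, 686 probes were higher (2.61%) and 936 lower (3.56%) in L2. With each array scaled to its median instead, the split was 846 higher and 719 lower. The differences were small over the whole array, with a median of -0.062 and an SD of 0.30 on the log2 scale, and the median standard error of a probe was 0.18. By more than 2-fold, 155 probes were higher and 95 lower in L2. With slide as a block beside condition, 0 probes were called (0%), with 1254 higher (4.78%) and 620 lower (2.36%) at an unadjusted p below 0.05.

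Neither called probe has a gene description here, and the groups did not overlap for either. The first, A_95_P006611 for the EST CV021053, had -1.67, -0.76 and -1.1 in the L2 normal arrays, against -3.74, -3.90 and -3.94 in the WT normal arrays. After salt it had -1.92, -1.17 and -0.080 in L2 and -3.14, -3.17 and -3.10 in WT. Every L2 array was thus above every WT array, and the L2 arrays varied more among themselves (-1.12 ± 0.66 in L2, -3.50 ± 0.40 in WT, SD, n = 6 each). The line difference was 2.38 ± 0.27 (SE), or 5.21-fold (limma, adjusted p = 0.0421). Within slides it was of like size, at 2.19 on slide 1 and 2.05 on slide 3, yet with slide as a block (2.12 ± 0.36) the adjusted p was 0.604.

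The second called probe, A_95_P263916 for the EST AM838197, had 0.49, 0.73 and 0.36 in the L2 normal arrays, against -2.59, -2.14 and -2.26 in the WT normal arrays. After salt it had -0.57, -1.21 and 0.87 in L2 and -2.22, -2.56 and -2.33 in WT. L2 was higher than WT in all arrays, with L2 salt replicates 1 and 2 the lowest of the L2 arrays. The difference was 2.46 ± 0.30, or 5.51-fold (limma, adjusted p = 0.0421), and it was 2.82 within slide 1 and 2.02 within slide 3. The slide block gave 2.42 ± 0.44 (limma, adjusted p = 0.604). Neither probe's difference changed with salt at the threshold (limma interaction, adjusted p = 0.525 and 0.441). Neither accession has a further probe on the array.

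These calls were sensitive to single arrays. When each array was left out in turn, no probe was called in 9 of 12 fits. Without L2 salt replicate 1, A_95_P006611 and A_95_P299333 (TC152980, 1.44) were higher, the second of them named after its values were seen. Without L2 salt replicate 2, A_95_P263916 alone was higher. Without L2 salt replicate 3, both called probes and A_95_P094403 (2.54, adjusted p = 0.0188, limma) were higher and A_95_P008866 (-1.92, named after its values were seen) was lower. Over these 12 fits the difference of A_95_P006611 stayed between 2.20 and 2.61 with an adjusted p of 0.00238 to 0.194, and that of A_95_P263916 between 2.25 and 2.71 with an adjusted p of 0.00473 to 0.194 (limma). Without L2 normal replicates 2 and 3, neither was called and 1 other probe was, as described below.

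**Figure D2:**
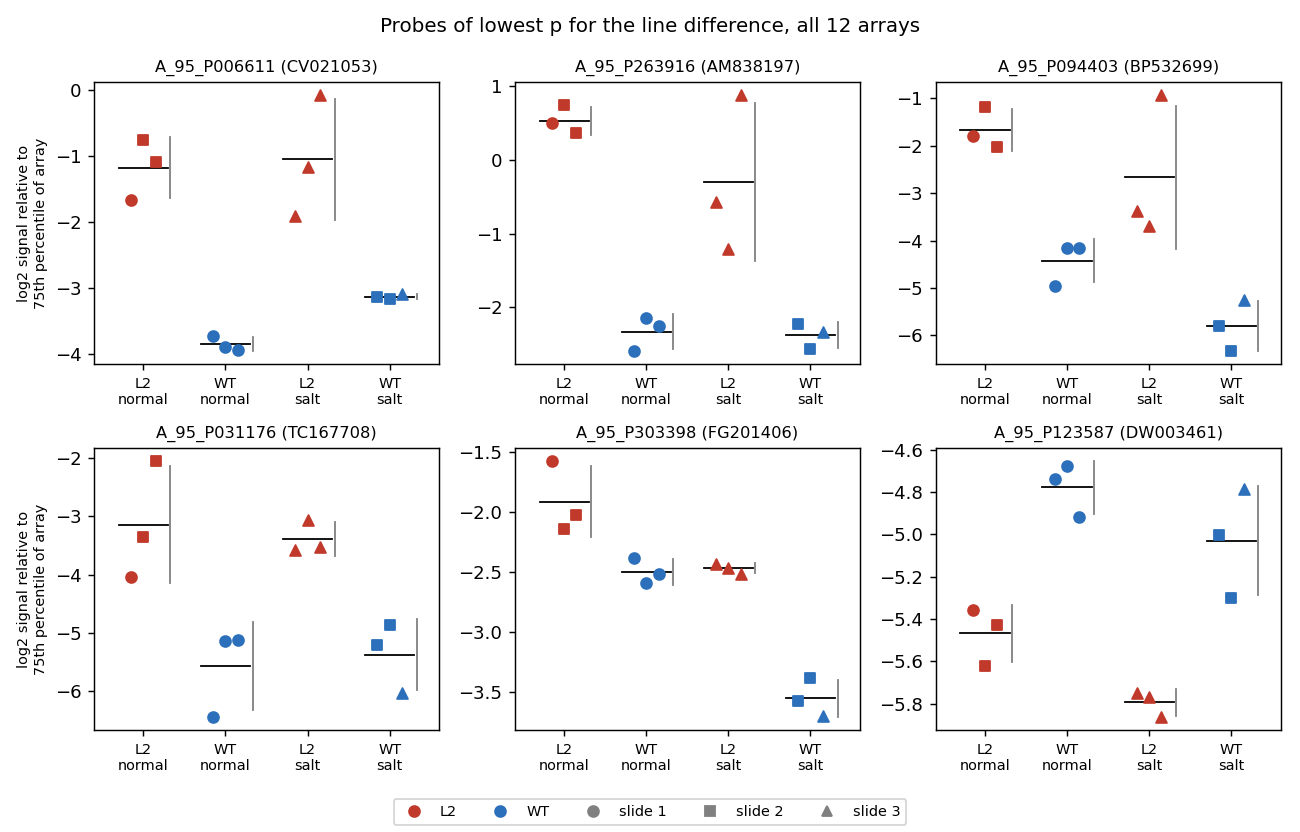
Log2 signal relative to the 75th percentile of the array (y axis) in the 12 arrays for the 6 probes of lowest p for the line difference. Points are arrays (colour, line; shape, slide), black lines are group means and grey bars are ± 1 SD (n = 3); for A_95_P006611 and A_95_P263916 all 6 L2 arrays lie above all 6 WT arrays.

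Among probes that did not pass, 3 more higher in L2 are named, being next by p. A_95_P094403 (BP532699) had a fitted difference of 2.95 ± 0.42 (limma, adjusted p = 0.129), and 2.61 ± 0.62 with slide as a block. It had -1.80, -1.18 and -2.02 in L2 and -4.95, -4.16 and -4.15 in WT under normal conditions, and -3.37, -3.69 and -0.93 in L2 and -5.81, -6.33 and -5.26 in WT after salt. It was well above background on 6 L2 arrays but on only 2 WT arrays, both under normal conditions, so after salt only a bound can be given, of at least 4.72-fold higher in L2. A_95_P031176 (TC167708) was well above background on 4 L2 arrays and on 0 WT arrays. It met the filter only through the L2 normal arrays, and A_95_P094403 only through L2 arrays. Their higher values in L2 are thus in part built into the filter. For A_95_P031176 only a bound can be given, of at least 3.28-fold higher in L2 (limma, adjusted p = 0.242), and the measured means were -3.27 in L2 and -5.47 in WT. Its measured difference with slide as a block was 2.09 ± 0.44. The bound of A_95_P031176 is not strict, since the L2 mean in it includes arrays that were not well above background. The local signal floor around its spot was also over 2-fold off on some array. Bounds here are taken against the lowest signal that counted as well above background on each array of the dimmer group, or the probe's own signal where that was higher.

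A_95_P303398 (FG201406) differed less but with a smaller spread. It had -1.58, -2.15 and -2.02 in L2 and -2.38, -2.60 and -2.52 in WT under normal conditions, and -2.43, -2.47 and -2.52 in L2 and -3.58, -3.39 and -3.70 in WT after salt. Within each condition L2 was above WT in every array, while over both the L2 salt arrays overlapped with the WT normal arrays. The difference was 0.83 ± 0.14 (limma, adjusted p = 0.292), and with slide as a block it was 1.07 ± 0.12, the lowest p of that fit (limma, adjusted p = 0.178). It was the one probe called when L2 normal replicates 2 and 3 were left out, at 1.03 ± 0.10 (limma, adjusted p = 0.0414).

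The 5 probes of lowest p among those lower in L2 were dim, and none passed. Of them, A_95_P123587, A_95_P149057, A_95_P068815 and A_95_P073625 met the filter only through the WT normal arrays, where they were brightest. Their lower values in L2 are thus in part built into the filter. A_95_P123587 (DW003461) had -5.36, -5.62 and -5.43 in L2 and -4.74, -4.68 and -4.92 in WT under normal conditions, and -5.75, -5.77 and -5.86 in L2 and -5.0, -5.30 and -4.79 in WT after salt. All L2 arrays were below all WT arrays, by 0.73 ± 0.11 (limma, adjusted p = 0.242; 0.79 ± 0.15 with slide as a block), but the probe was well above background on only 1 L2 array and 5 WT arrays. A_95_P149057 (EB678711) differed by -1.1 ± 0.19, A_95_P068815 (BP137222) by -0.87 ± 0.16 and A_95_P080735 (BP528082) by -0.55 ± 0.11, with adjusted p from 0.331 to 0.444 in limma. The slide block gave -0.89, -0.72 and -0.38 for these probes. The first 2 of them were not well above background on any L2 salt array, and the third on 1. A_95_P073625 (BP526260) was well above background on 0 L2 arrays and 3 WT arrays, with measured means of -5.71 in L2 and -4.90 in WT, and allows no fold. Of the 4 probes more than 4-fold lower, the one of lowest p, A_95_P281833 (AM814343), was named after its values were seen. It ran from -5.72 through a median of -4.99 to -3.93 in L2 and from -3.90 through -3.17 to -1.51 in WT, a fitted difference of -2.03 ± 0.43 (limma, adjusted p = 0.485; -1.89 ± 0.67 with slide as a block). It was well above background on all WT arrays but on only 2 L2 arrays and on 0 of the 3 L2 salt arrays, so after salt WT was at least 2.91-fold higher than L2, with measured means of -5.22 in L2 and -2.41 in WT. Within slide 1, where the L2 array was brightest, the difference was -0.52. This probe met the filter only through WT arrays.

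All 6 L2 arrays lay above all 6 WT arrays for 16 probes (0.0609% of those tested) and below them for 17 (0.0647%). Of the 16, 14 were well above background on all 12 arrays, and their differences ran from 0.34 to 2.95 with a median of 0.67. The 17 ran from -2.03 to -0.25 with a median of -0.45, and 10 of them were well above background throughout. No probe with a known gene name was among the 33. Comparing arrays of the same condition only, L2 was above WT for 87 probes (0.331%) and below it for 96 (0.366%).

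Under normal conditions 1187 probes were more than 2-fold higher and 1090 more than 2-fold lower in L2, and after salt 248 were higher and 492 lower. In both, 11 probes were more than 2-fold higher, which is 0.927% of the normal list and 4.44% of the salt list. These shares are near those over all tested probes, of which 0.944% were more than 2-fold higher after salt and 4.52% under normal conditions. Lower in both were 13 probes (1.19% of the normal list and 2.64% of the salt list), where 1.87% of all tested probes were lower after salt and 4.15% under normal conditions. Of the probes higher under normal conditions 117 (9.86%) were more than 2-fold lower after salt, and of those lower under normal conditions 144 (13.2%) were higher after salt. Across probes the differences in the 2 conditions correlated at -0.30 (Pearson; n = 26260 probes, which are not independent and share slides). The difference of L2 normal replicate 1 from its 3 WT neighbours on slide 1 exceeded 2-fold for 513 probes, and that of L2 normal replicates 2 and 3 from the same WT arrays for 4847. Without the arrays of slide 2, that is, within slides 1 and 3, the differences in the 2 conditions correlated at 0.027 across probes. There 270 probes were more than 2-fold higher on slide 1 and 999 on slide 3 (1.03% and 3.80% of all tested). Of the 270, 27 were also higher on slide 3 (10%) and 63 were lower there by more than 2-fold (23.3%). Of the 243 lower on slide 1, 37 were also among the 513 lower on slide 3 (15.2%) and 21 were higher there (8.64%). Of all tested probes, 0.925% were more than 2-fold lower on slide 1 and 1.95% on slide 3.

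**Figure D3:**
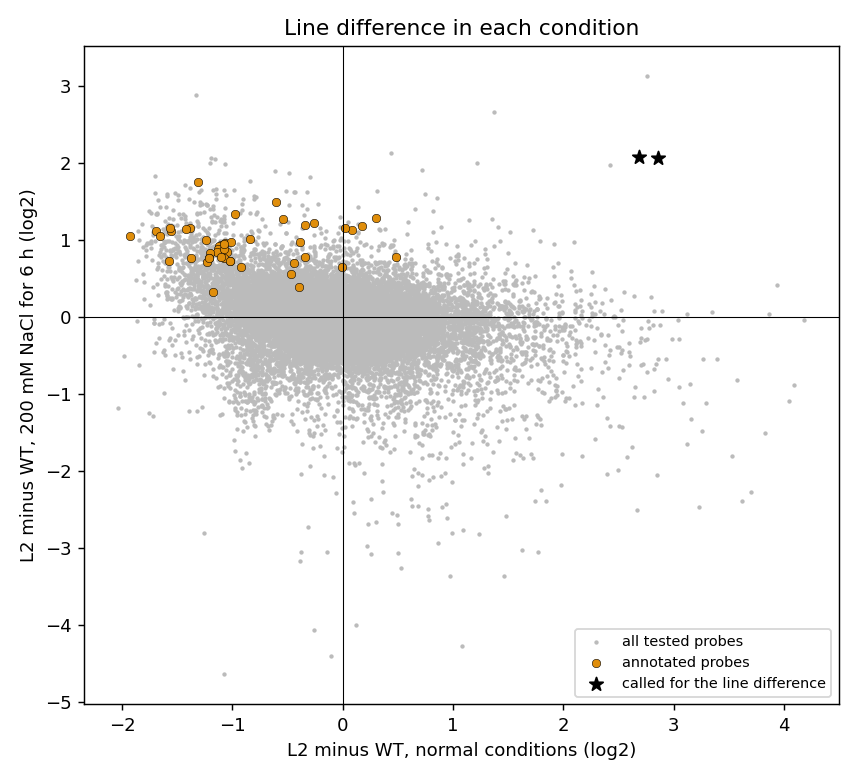
L2 minus WT under normal conditions (x axis) and after 200 mM NaCl for 6 h (y axis), both log2, for each of 26260 tested probes. Orange points are the 47 annotated probes, which the study chose for a higher level in L2 after salt, and stars the 2 probes called for the line difference; 42 of the 47 lie left of 0 on the x axis.

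The dependence of the line difference on salt was tested directly. No probe had a called interaction (0%), whereas 4706 passed an unadjusted p below 0.05 (17.9%), with a lowest adjusted p of 0.104 (limma). Without L2 normal replicate 1, the L2 array on slide 1, 6611 probes were called. A slide block gave 1 called probe, A_95_P057741 (BP134292), at -4.98 ± 0.33 (limma, adjusted p = 0.00385). That value came from 1 array, for the probe had 1.55, -4.44 and -4.31 in the L2 normal arrays and -3.59, -3.15 and -3.14 in the WT normal arrays, with -4.71, -5.01 and -4.72 in L2 and -4.31, -4.08 and -4.68 in WT after salt. The spot at 1.55 carried the outlier flag of the scanner software.

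The 3 probes of lowest interaction p moved in different ways. A_95_P021721 (EB443875) had -5.19, -4.81 and -4.61 in L2 and -7.28, -7.44 and -7.40 in WT under normal conditions, but -4.90, -3.75 and -4.15 in L2 and -3.80, -3.97 and -3.87 in WT after salt. L2 was above WT without salt and overlapped with it after salt, although the probe was well above background on 1 of the 3 L2 normal arrays and on 0 of the WT normal arrays. A second probe of the same EST, A_95_P139937, differed by 0.90 under normal conditions and by -0.30 after salt. A_95_P073210 (FG161102) was lower in L2 by 1.56 under normal conditions and higher by 0.52 after salt. It met the filter only through the WT normal arrays, and A_95_P021721 only through the WT salt arrays. A_95_P126732 (EB426079) differed by 1.84 under normal conditions. After salt it was well above background on 0 of 3 L2 arrays and on all 3 WT arrays, so that WT was at least 1.28-fold higher than L2, with measured means of -5.99 in L2 and -3.59 in WT. The adjusted p of these interactions was 0.104, 0.104 and 0.138 (limma). Blocked by slide, the interactions were -2.57 ± 0.51, 2.02 ± 0.37 and -3.73 ± 0.90, with adjusted p of 0.311, 0.232 and 0.390 (limma).

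The annotated probes describe known pathways, but since they were listed for a higher level in L2 after salt, their salt values are no independent evidence, nor is the line difference, which includes them. None of the 47 was called for the line difference. At an unadjusted p below 0.05, 5 were higher and 0 lower, and their median difference was -0.098 against -0.062 for all tested probes. In number, 17 of 47 were above 0, beside 38.8% of all tested probes. After salt all 47 were above 0, by the choice of the list. Under normal conditions, which the choice did not use, 42 of 47 were below 0, against 62.7% of all tested probes, and 25 of 47 were lower at an unadjusted p below 0.05, against 12.6% of all. None passed the adjusted threshold there (limma, lowest adjusted p = 0.174). The lower values were those of slide 2, which also held WT salt replicates 1 and 2, on which the list was chosen. The counts under normal conditions are thus not independent of that choice. Several of the 47, among them A_95_P018051, A_95_P037263 and A_95_P006516, also met the filter only through the WT normal arrays. For these a lower L2 value under normal conditions is in part built into the filter. L2 normal replicates 2 and 3 lay below the WT normal arrays by a median of 1.65 over the 47, whereas L2 normal replicate 1, on the same slide as those WT arrays, lay above them by a median of 0.14, with 34 of 47 above 0 (55.1% of all tested probes were). The WT salt arrays, all on slides 2 and 3, were below the WT normal arrays, all on slide 1, by a median of 1.77 for these probes, and salt and slide cannot be told apart in WT. Once slide was blocked, 41 of 47 line differences were above 0 (56.1% of all tested probes), with a median of 0.32 and 0 called.

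Alkaloid synthesis provided the annotated probe of lowest p. Tropinone reductase homologs belong to a family of dehydrogenases that reduce keto groups in alkaloid pathways. The homolog on the array (A_95_P282903, AM847814) had -1.36, -1.98 and -1.49 in L2 and -2.16, -2.30 and -1.82 in WT under normal conditions, and -1.22, -1.33 and -1.99 in L2 and -2.24, -2.35 and -2.32 in WT after salt. L2 was above WT in every salt array and overlapped with it by 1 array under normal conditions. The difference was 0.63 ± 0.17, 1.55-fold, with a 95% confidence interval of 0.27 to 1.00 (limma, unadjusted p = 0.00275, adjusted p = 0.762). It was 0.73 within slide 1 and 0.81 within slide 3, and 0.77 ± 0.22 with slide as a block. Putrescine N-methyltransferase (A_95_P183277), which commits putrescine to nicotine synthesis and is known as a root enzyme in tobacco, differed by 0.37 ± 0.35 (0.99 ± 0.33 with slide as a block). It was well above background on only 2 L2 and 3 WT arrays, all under normal conditions. Its block value came from 0.13 within slide 1 and 1.84 within slide 3, where it was not well above background on any array. The third probe of this group, a reticuline oxidase-like protein (A_95_P157547), differed by -0.15, and by 0.32 with slide as a block.

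For plastid-encoded transcripts the median line difference was 0.54 over 4 probes, against -0.062 for all tested probes. It was made up of a median of -0.12 under normal conditions, with 2 probes above 0 and 2 below, and of 1.26 after salt, the arrays on which these probes were selected. With slide as a block the median was 0.69, against 0.77 for the 3 alkaloid synthesis probes and 0.033 for all tested probes. Maturase K, which splices introns in the plastid (A_95_P035398), had -1.36, -0.70 and -0.60 in L2 and -1.71, -0.99 and -0.88 in WT under normal conditions, and 0.31, 0.80 and 0.55 in L2 and -0.91, -0.58 and -0.73 in WT after salt. The lines overlapped under normal conditions and not after salt. Its line difference was 0.80 ± 0.23 (limma, unadjusted p = 0.00486, adjusted p = 0.762), and 0.56 ± 0.32 with slide as a block, from -0.17 within slide 1 and 1.28 within slide 3. A second probe of the same EST, A_95_P260261, which was not on the list, differed by -0.039 (0.17 with slide as a block). The subunit of the chloroplast NAD(P)H dehydrogenase, which drives electrons back into the photosynthetic chain (A_95_P023626), differed by 0.59 ± 0.23 (0.64 ± 0.24 with slide as a block). The assembly factor of photosystem I Ycf3 (A_95_P047176) and Ycf2 (A_95_P083300) differed by 0.45 ± 0.40 and 0.48 ± 0.30, and by 0.74 and 0.77 with slide as a block. Only the Maturase K and NAD(P)H dehydrogenase probes had an unadjusted p below 0.05 in this group, and none passed after adjustment.

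Among the sulfate assimilation probes none passed. APS reductase, which reduces activated sulfate on the way to cysteine, was represented by 6 probes, and all 6 had a line difference below 0, from -0.44 to -0.093, with none at an unadjusted p below 0.05. When slide was blocked, 4 of them were below 0 and 2 were above it, A_95_P186302 at 0.11 and A_95_P134087 at 0.031. A_95_P134072 (HO663864) had 1.52, 1.1 and 0.16 in L2 and 2.32, 2.57 and 2.60 in WT under normal conditions, and 1.5, 1.78 and 0.81 in L2 and 0.70, 0.47 and 0.71 in WT after salt. All L2 arrays were below WT without salt and above it with salt, so that the difference of -1.57 in one condition and 0.74 in the other left a line difference of -0.42 ± 0.40 (limma, adjusted p = 0.825), and -0.16 ± 0.38 with slide as a block. A_95_P170234 (EH664856) differed by -1.93 under normal conditions, by 1.06 after salt and by -0.44 ± 0.54 over both (-0.58 ± 0.58 with slide as a block). Its salt arrays overlapped, with -1.81, -1.18 and -3.06 in L2 and -3.18, -3.50 and -2.54 in WT. Unlike the list as a whole, these probes were lower in L2 on slide 1 too. L2 normal replicate 1 was below the mean of the WT normal arrays for all 6 APS reductase-like probes, by 1.69 for A_95_P170234 and by 0.97 for A_95_P134072. The seventh probe of the group, a sulphur deficiency-induced protein (A_95_P053311), differed by 0.029 on slide 1, by 0.22 over both conditions and by 0.36 with slide as a block.

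Nitrate reductase, the first enzyme of nitrate assimilation (A_95_P258921, X06134), followed the APS reductase-like probes. It had -0.92, -1.39 and -1.68 in L2 and -0.75, 0.24 and 0.25 in WT under normal conditions, and -0.72, -0.93 and -1.32 in L2 and -1.89, -2.02 and -2.08 in WT after salt. L2 arrays lay in a narrow range, below WT without salt and above it with salt, and the line difference was -0.12 ± 0.38 (limma, adjusted p = 0.936), and 0.13 ± 0.40 with slide as a block. A second probe of the same mRNA that was not on the list, A_95_P247817, gave -1.41 under normal conditions, 0.99 after salt and -0.21 over both (-0.11 with slide as a block). Both interactions were in the same direction, and for the listed probe the adjusted p was 0.138 (limma).

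For the SOD, GST-like and calcium-binding probes the line difference depended on the arrays of slide 2. SOD, which dismutates superoxide (A_95_P018051), had -2.77, -4.99 and -4.81 in L2 and -3.48, -2.78 and -2.90 in WT under normal conditions, and -4.09, -3.87 and -4.37 in L2 and -4.92, -5.41 and -4.55 in WT after salt. L2 normal replicate 1 lay with the WT arrays of its slide, and the other L2 normal arrays about 2 units lower, like the salt-treated WT arrays. The SOD probe was well above background on only 3 L2 and 5 WT arrays. The line difference was -0.14 ± 0.44 (limma, adjusted p = 0.930), against 0.36 ± 0.22 with slide as a block and 0.66 ± 0.22 without L2 normal replicates 2 and 3 (limma, adjusted p = 0.788 and 0.613). A GST-like protein (A_95_P037263) differed by 0.18 ± 0.49 (0.53 ± 0.34 with slide as a block), but was well above background on only 2 L2 and 3 WT arrays, and on 0 WT salt arrays. A calcium-binding protein (A_95_P192712) differed by -0.20 ± 0.59, against 0.45 ± 0.34 with the block and 0.85 ± 0.23 without L2 normal replicates 2 and 3 (limma, adjusted p = 0.831 and 0.562). Both had the same split between L2 normal replicate 1 and the other 2 L2 normal arrays. The values with the block or without those 2 arrays rest in part on the L2 salt arrays, on which the list was chosen. SOD differed by 0.28 within slide 1 and 0.44 within slide 3, and the calcium-binding protein by 0.23 and 0.67. The secretory peroxidase (A_95_P249287, AF149251), one of the class III peroxidases that act in the cell wall, differed by 0.33 ± 0.20 (0.36 ± 0.19 with slide as a block), from -0.0060 under normal conditions and 0.66 after salt. A second probe of its mRNA, A_95_P112997, went the other way between conditions, with 1.38 under normal conditions, -0.83 after salt, 0.27 over both and -0.041 with slide as a block. The 4 cell wall probes, which include a pectin methylesterase, its inhibitor and a pectate lyase, ranged from -0.30 to 0.22, and from 0.19 to 1.29 with slide as a block. Both upper values were those of a glycine-rich cell wall protein (A_95_P006516), well above background on only 1 L2 and 3 WT arrays and on no salt array. Its block value came from -0.030 within slide 1 and 2.62 within slide 3, and its local signal floor was over 2-fold off on some array. The other cell wall probes reached at most 0.57 with the block. The cyclin probe (A_95_P315843) differed by -0.42 ± 0.41 (-0.13 ± 0.28 with slide as a block) and was well above background on only 2 L2 and 4 WT arrays. The 4 receptor-like kinase probes differed by -0.26 to -0.049, and by 0.20 to 0.36 with slide as a block. One of them, A_95_P284013, has a second probe of its EST that was not on the list, A_95_P081730. That probe differed by -0.52 (0.25 with slide as a block), and by -0.25 after salt, where the listed probe gave 0.78. It was well above background on only 2 L2 and 5 WT arrays.

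Of the remaining 18 annotated probes, 7 were above 0 and 11 below. An ICR1-like protein (A_95_P297413) differed by 0.68 ± 0.26 and a CCR-like protein (A_95_P159832) by 0.61 ± 0.26, each with an unadjusted p below 0.05 and an adjusted p of 0.784 (limma). The slide block gave 0.72 and 0.84. A PPR-containing protein (A_95_P130417), of a family that binds RNA in organelles, differed by 0.43 ± 0.38 (1.14 ± 0.38 with slide as a block).

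The plastid ω-3 desaturase NtFAD7 (A_95_P237544, D79979) was among the bright probes and did not differ detectably. It had 4.24, 3.93 and 3.50 in L2 and 4.09, 4.39 and 4.21 in WT under normal conditions, and 4.30, 4.13 and 3.92 in L2 and 3.85, 3.77 and 3.72 in WT after salt. The lines overlapped under normal conditions, while the L2 salt arrays were all above the WT salt arrays. The means were 4.0 ± 0.29 in L2 and 4.0 ± 0.27 in WT (SD, n = 6 each), and the 95% confidence interval of the difference was -0.37 to 0.36 (limma, adjusted p = 0.998). It was 0.014 within slide 1 and 0.40 within slide 3, and 0.20 ± 0.17 with slide as a block.

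**Figure D4:**
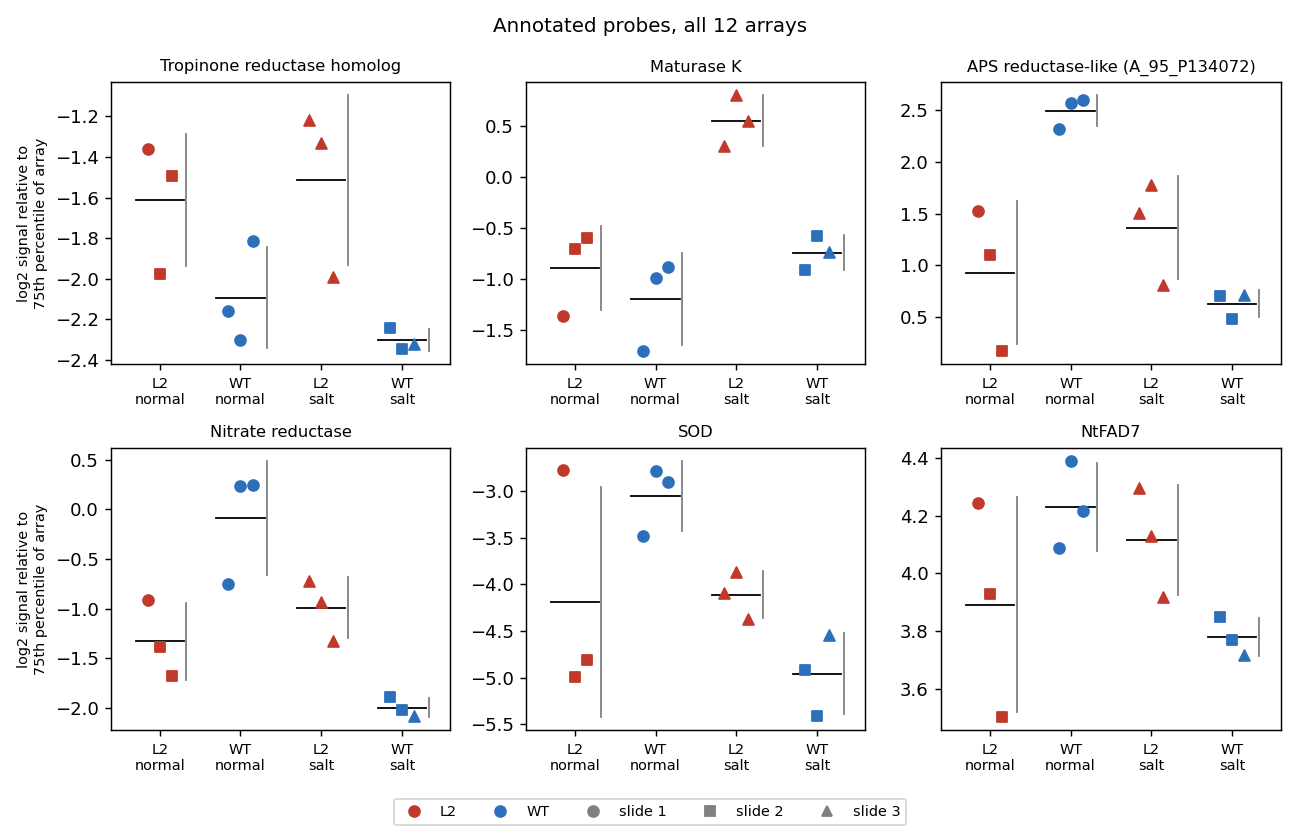
Log2 signal relative to the 75th percentile of the array (y axis) of 6 annotated probes in the 12 arrays, with group means (black lines) and ± 1 SD (grey bars, n = 3). Colour marks the line and shape the slide; for SOD, L2 normal replicate 1 (circle) sits with the WT normal arrays and the 2 L2 normal arrays of slide 2 (squares) sit about 2 units lower.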

How the data were processed

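The authors scanned 12 1-colour Agilent arrays and extracted them with Feature Extraction (version 11.5.1.1 per the file headers, 10.7.3.1 per the labels). The deposited scanner files hold background-subtracted spot intensity. The deposited value table holds the log2 processed signal after each array's 75th percentile was taken off. This was checked against the scanner values: 100% of 524976 values lay within 0.01 of 1 shift per array. The number of arrays limits the precision. Replicates were pools of plants, and where pools were not from separate cultures p-values cover only the spread between these samples.

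The table was fitted with limma 3.58.1 (lmFit, eBayes) in R 4.3.3 with line and condition (9 residual degrees of freedom), and again with slide (7). P-values were adjusted by Benjamini-Hochberg over all 26260 tested probes, at a threshold of 0.05. Interactions and differences within a condition came from 4 group means (8 degrees of freedom). The fits were tested on simulated data. Control probes and 52 edge-block probes were left out. Averages were taken over the 5 spots of 11 probes in the scanner values. A value was taken as well above background by the flag of the scanner software. Array-level values were compared by exact permutation.

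Members, lists and tests were chosen with earlier results of these data known. The probes named are the 5 in each direction of largest difference among those called, filled by lowest p, the annotated probes of lowest p, up to 2 per gene list, and the 3 of lowest interaction p. Of 10 annotated probes of lowest p lower in L2, 3 are described with their standard errors, and others only by single values or within a range. Lists without an annotated probe, among them jasmonate synthesis, proton pumps and leaf markers, were not analysed. Alternatives covered scaling, background, filter, blocks, weights, the methods' t-test and arrays left out. Tables and figures were made with Python, numpy, pandas, scipy and matplotlib.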

Additional observations from a re-analysis of the deposited data

Results flagged for a closer look

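Among the 6 L2 or 6 WT arrays, 4 values stood apart from the rest of their line by a gap above 0.625 of the range, in 70 sets tested, and about 1 set in 20 does so by chance. A_95_P057741 was at 1.55 in L2 normal replicate 1, against -5.01 to -4.31 in the other L2 arrays, and that spot carried an outlier flag. The CCR-like probe (A_95_P159832) was at 0.071 in L2 normal replicate 3, against 1.17 to 1.68 in the other L2 arrays. The tropinone reductase homolog (A_95_P282903) was at -1.82 in WT normal replicate 3, against -2.35 to -2.16 in the other WT arrays. Maturase K (A_95_P035398) was at -1.71 in WT normal replicate 1, against -0.99 to -0.58 in the other WT arrays.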

How the results depend on the processing

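The count of 2 probes higher and 0 lower in L2 held with 4 group means, no covariate, scanner values, median scaling, normexp background, only probes well above background on all 12 arrays, the edge block kept, an intensity trend with robust estimation, and a 2-fold limit. It was 3 with array weights, for which the weight estimation did not converge. It was 0 higher with slide as a fixed or a random block, with quantile normalization, with the percentile taken over detected probes alone, with no filter on dim probes, at an adjusted p below 0.01, and by the methods' t-test (lowest adjusted p = 0.0554 for quantile normalization and 0.408 for the t-test, which had 244 higher and 423 lower at an unadjusted p below 0.05). With the replicate number as a block it was 0 as well. Same-numbered arrays did not clearly deviate together (correlation -0.39 to 0.41, median 0.060, over 18 pairs, against -0.38 to 0.36, median 0.016, over 36 pairs of different number). No pairing by number was thus seen, but deviations from means of 3 arrays that partly mix slides cannot exclude one. Of alternatives added after seeing the data, slide in place of condition gave 5 higher (both called probes, A_95_P303398, A_95_P125777 and A_95_P235579), leaving out the 4 arrays of slide 2 gave 0, leaving out both L2 normal arrays on slide 2 gave 1, and leaving out spots with a local floor over 2-fold off gave 2. Leaving out 1 array gave 0 to 3 higher and 0 to 1 lower. Called interactions were 0, or 1 with the slide block, 12413 with array weights, and 0 to 6611 when 1 array was left out. Of the alternative values of 33 named line differences, 909 kept their direction and side of the threshold, 36 (of the 2 called probes) no longer passed, 4 came to pass and 55 changed sign.

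The line differences near 0 changed sign. With slide as a fixed block they were 0.45 (A_95_P192712), 0.36 (A_95_P018051), 0.13 (A_95_P258921) and 0.20 (A_95_P237544), and the same without the 4 arrays of slide 2. With slide as a random block they were 0.048, 0.048 and 0.078 for A_95_P192712, A_95_P018051 and A_95_P237544. With array weights they were 0.42, 0.35 and 0.11 for these probes and 0.040 for A_95_P315843. With slide in place of condition they were 0.17, 0.32, 0.25, 0.086, 0.045 and 0.39 for A_95_P192712, A_95_P018051, A_95_P258921, A_95_P237544, A_95_P315843 and A_95_P126732. Without L2 normal replicates 2 and 3 they were 0.85, 0.66, 0.39, 0.23, 0.25, 0.17 and 0.14 for A_95_P192712, A_95_P018051, A_95_P258921, A_95_P237544, A_95_P315843, A_95_P134072 and A_95_P170234. A_95_P237544 had 0.059 with quantile normalization, 0.034 with median scaling and 0.037 with the 75th percentile over detected probes. A_95_P057741 had -0.73 with scanner values, which leave out its flagged spot, -0.64 with quantile normalization, -0.68 with median scaling, -0.67 with the 75th percentile over detected probes and -0.15 with normexp, and A_95_P126732 had 0.11 with normexp. With 1 array left out, the ranges were -0.60 to 0.21 (A_95_P126732), -0.079 to 0.62 (A_95_P037263), -0.45 to 0.32 (A_95_P192712), -0.36 to 0.14 (A_95_P018051), -0.30 to 0.086 (A_95_P258921), -0.73 to 0.60 (A_95_P057741) and -0.079 to 0.12 (A_95_P237544). The cause of these changes was not tested, other than the flagged spot.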

Other observations

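With slide as a block, 2 probes each of 2 accessions were among the 20 of lowest p, and these were named after their values were seen. The probes of DV999800 (A_95_P028326 and A_95_P263126) were higher in L2 by 1.01 and 0.83 with the block, and by 0.76 and 0.10 without it. Of the 4 probes of X82831, 2 (A_95_P249302 and A_95_P189337) were higher by 1.16 and 0.93 with the block, and by 0.38 and 0.37 without it. The other X82831 probes were not among those 20 and are not described. None of these passed the adjusted threshold in either fit (limma, adjusted p = 0.604 for each with the block). Within slide 1 the 4 differences were between 0.65 and 0.94, and within slide 3 between 0.93 and 1.47.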
